A study of Mus musculus with 32 samples.

Results

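The 8 genes that encode the subunits of the cytosolic chaperonin TRiC, also called CCT, were examined: Tcp1 (subunit CCT1), Cct2, Cct3, Cct4, Cct5, Cct6a, Cct7 and Cct8. They were chosen by name, with earlier results of these data known. Every probe set that the array's probe table assigns to 1 of these symbols alone was taken. This gave 25 probe sets of 45037 that are not controls, and 8 of 18193 genes in the series. Expression had been measured on Affymetrix arrays in whole striatum. All mice were male, aged 12 weeks and of the background CBA X C57Bl/6. They were either wild type or R6/2 and were given by oral gavage either HSP990, which inhibits the chaperone HSP90, or its vehicle alone. The series' design text, not the label of each array, gives the dose of 12 mg/kg and the time of 4 h. In wild type, 7 arrays were from vehicle and 10 from HSP990, and in R6/2, 7 were from vehicle and 8 from HSP990. R6/2 mice carry a fragment of the human huntingtin gene with an expanded CAG repeat and are used as a model of Huntington's disease. Its expression is driven by the human huntingtin promoter and is not restricted to a cell type. The labels number the replicates without naming animals, and p-values therefore describe only how far these samples spread, which may be technical.

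TRiC is a barrel of stacked rings in which each ring holds the 8 related subunits in a fixed order. Proteins are enclosed in its cavity and fold as ATP is hydrolysed. Actin and tubulin are its best known substrates, and nascent substrates are handed to it by the co-chaperone prefoldin. In cell and yeast models TRiC binds the polyglutamine-containing part of huntingtin and limits its aggregation. The subunits differ in how tightly they bind ATP: Tcp1, Cct2, Cct4 and Cct5 bind it with high affinity, and Cct3, Cct6a, Cct7 and Cct8 with low affinity. Results are given in these groups.

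The promoters of these genes are shown because HSP90 inhibitors are known to induce chaperone genes through heat shock elements, which are alternating GAA and TTC units separated by 2 bases. RefSeq start-site windows (build GRCm38.p6) of 300 bases, 250 before and 50 after the start, were held in the sequence table for 7 of the 8 genes, in 9 windows. None of these windows held 3 adjacent units (GAANNTTCNNGAA or TTCNNGAANNTTC, both strands), a pattern found in 0.603% of all 32851 windows. A pair of units (GAANNTTC or TTCNNGAA, each its own reverse complement, and contained in the longer pattern) was found in 3 of the 9, against 15.1% of all windows. The CCAAT box (CCAAT or ATTGG) was found in 4 of the 9, those of Tcp1, Cct3, Cct6a and Cct7, against 37.4% of all, and this motif was looked up after the data had been seen. A match is a description of the letters and not evidence of binding. The 250 bases before the start of Cct7, the subunit with the largest change under HSP990, of Cct6a, the next largest, and of Cct5, whose pair of units lies 26 bases before its start, are printed below. Beside them stand 80 bases upstream of Hspe1, the mitochondrial co-chaperonin gene, as an example of a strongly induced chaperonin promoter. Capitals mark CCAAT boxes in Cct7 and Cct6a and heat shock element units in Cct5 and Hspe1. They are Cct7 at chr6:85451255-85451504 (plus strand), Cct6a at chr5:129787106-129787355 (plus strand), Cct5 at chr15:31601847-31602096 (minus strand) and Hspe1 at chr1:55088028-55088107 (plus strand), each written 5′ to 3′.
Cct7: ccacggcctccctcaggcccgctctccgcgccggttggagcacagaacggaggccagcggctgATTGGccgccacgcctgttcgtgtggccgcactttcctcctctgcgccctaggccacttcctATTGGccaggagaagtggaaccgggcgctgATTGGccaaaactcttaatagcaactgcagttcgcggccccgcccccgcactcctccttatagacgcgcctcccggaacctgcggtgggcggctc
Cct6a: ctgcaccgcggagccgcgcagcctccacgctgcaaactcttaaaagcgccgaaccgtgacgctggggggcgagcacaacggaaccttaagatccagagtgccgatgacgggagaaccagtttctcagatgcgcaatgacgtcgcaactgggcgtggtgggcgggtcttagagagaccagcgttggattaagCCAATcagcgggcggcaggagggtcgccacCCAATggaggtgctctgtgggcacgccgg
Cct5: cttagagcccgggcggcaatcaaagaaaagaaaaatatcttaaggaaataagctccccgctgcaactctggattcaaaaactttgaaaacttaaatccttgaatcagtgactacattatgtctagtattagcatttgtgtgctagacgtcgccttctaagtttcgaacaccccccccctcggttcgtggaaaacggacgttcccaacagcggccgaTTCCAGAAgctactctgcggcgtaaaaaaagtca
Hspe1: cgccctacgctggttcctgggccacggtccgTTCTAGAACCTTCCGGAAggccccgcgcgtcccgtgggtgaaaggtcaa
The Cct7 stretch holds 3 CCAAT boxes, all on the reverse strand, and no heat shock element. The Cct6a stretch holds 2 CCAAT boxes, and its pair of heat shock units (TTCGAGAA) begins 24 bases past the start, outside the printed stretch. The Hspe1 stretch holds 4 alternating units without a gap. Of the comparator genes in the heat shock and mitochondrial chaperonin lists, 9 had windows, and 3 of these (Hspd1, Hspe1 and Hsph1) held 3 adjacent units. The windows of Hspd1 and Hspe1 overlap, and their match is the same stretch read from opposite strands. That of Hsph1 lies past its start. The windows of Hspa1a, Hspa1b, Hspb1 and Dnajb1, which rose more than Hspe1 in both genotypes, held no such match.

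All values are log2 expression values as deposited, and a difference of 1 is a 2-fold change. Each gene is represented by its probe set with the highest mean value. Array medians ran from 5.73 to 5.78. Genes that mark medium spiny neurons, the main striatal neurons, were strongly detected, and the 8 measured had medians over all arrays of 10.3 (Drd2) to 13.1 (Penk). Control probe sets for Gapdh and Actb showed that RNA integrity varied between arrays. The 3' minus 5' difference, which grows as RNA degrades, had a mean in wild type of 1.42 ± 0.59 (SD) with vehicle and 1.05 ± 0.37 with HSP990. In R6/2 it was 1.15 ± 0.45 with vehicle and 1.83 ± 1.18 with HSP990. In 2 arrays, R6/2 HSP990 replicate 5 and wild-type vehicle replicate 5, the Gapdh difference exceeded 2. Choroid plexus markers, a sign of the dissection, varied widely within every group, with a mean over 4 genes of 6.17 to 10.27 in wild type given vehicle and 6.25 to 10.64 given HSP990, and of 6.04 to 8.32 and 6.36 to 9.98 in R6/2. None of these 4 genes passed limma's test in any comparison, or had an unadjusted p under 0.05. With this spread, sizeable differences could go uncalled. The median log2 difference over the 4 genes was -0.57 with HSP990 in wild type and 0.48 in R6/2. Between R6/2 and wild type it was -1.10 on vehicle and 0.12 on HSP990. The part of the dissection in the subunit values was not tested.

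The first comparison asks which subunits HSP990 moved in mice without the transgene. All 8 subunit genes had higher means on HSP990, and 5 of them rose past the test: Tcp1, Cct2, Cct5, Cct6a and Cct7 (limma, Benjamini-Hochberg over 18193 genes). Over all genes 2.24% rose. The rises were modest, between 1.19-fold and 1.59-fold, with a median log2 change over the 8 genes of 0.36 against -0.03 over all genes. For 4 of the 8, Tcp1, Cct5, Cct6a and Cct7, every treated array lay above every vehicle array, a separation that 0.731% of all genes showed in this direction.

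**Figure D1:**
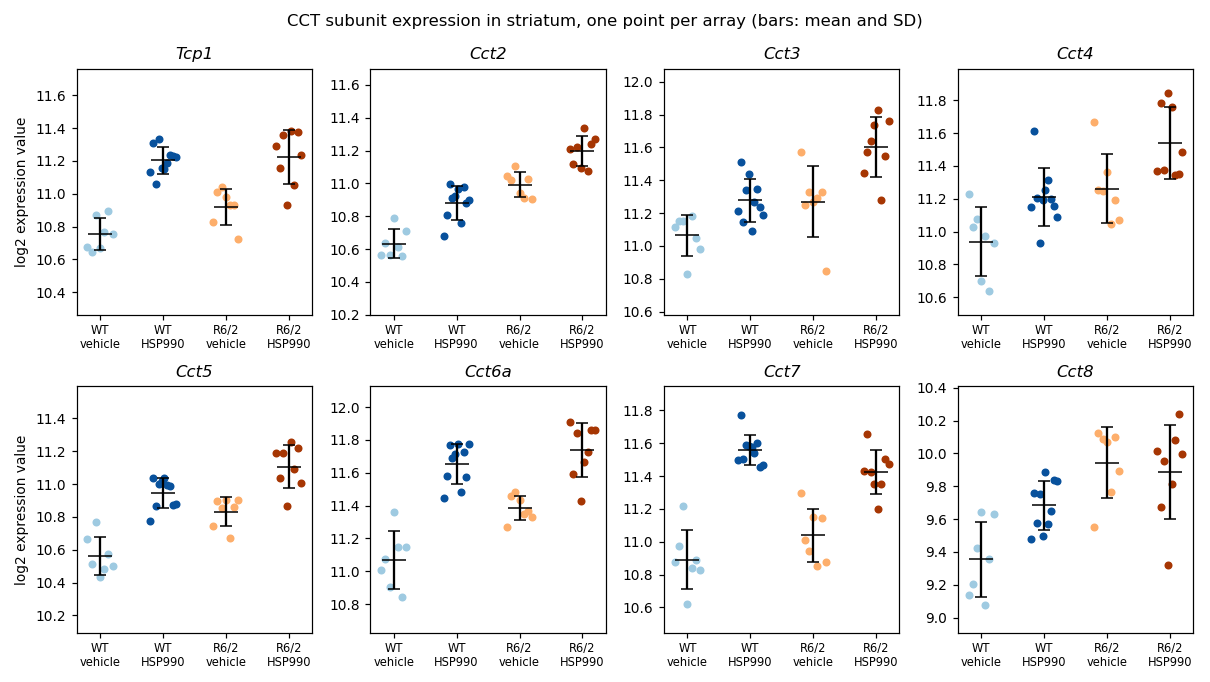
Log2 expression values of the 8 CCT subunit genes, 1 panel per gene and 1 point per array, in the 4 groups named on the horizontal axis; horizontal marks and bars are the group mean and SD, and every panel spans the same range of log2 units. For Tcp1, Cct5, Cct6a and Cct7 no wild-type HSP990 array lies as low as any wild-type vehicle array, and for Cct8 the R6/2 arrays stay near the same level with and without HSP990.

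Among the high-affinity subunits, Tcp1 had a lowest, median and highest value of 10.65, 10.75 and 10.89 on vehicle and 11.06, 11.21 and 11.33 on HSP990. The groups did not overlap, and Tcp1 rose 1.37-fold (log2 0.45 ± 0.06, SE, adjusted p = 7.22e-06, limma). Cct5, which lies beside Cct2 in the ring, ran from 10.43 through a median of 10.51 to 10.77 on vehicle and from 10.78 through 10.99 to 11.04 on HSP990. These groups touched without crossing, and Cct5 rose 1.31-fold (0.39 ± 0.06, adjusted p = 3.75e-05, limma). Cct2 ran from 10.56 through 10.61 to 10.79 on vehicle and from 10.68 through 10.91 to 10.99 on HSP990. In Cct2, 2 treated arrays fell within the vehicle range, and it rose 1.19-fold (0.25 ± 0.05, adjusted p = 0.0021, limma).

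Cct4 did not pass by its representative probe set. It ran from 10.64 through 10.98 to 11.23 on vehicle and from 10.93 through 11.20 to 11.61 on HSP990, with a log2 difference of 0.27 ± 0.10 (adjusted p = 0.0996, limma). For Cct4, 7 of the 10 treated arrays lay at or below the highest vehicle array. Its result depended on the probe set, as set out below.

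Among the low-affinity subunits were the largest changes. Cct7 ran from 10.62 through 10.88 to 11.22 on vehicle and from 11.45 through 11.56 to 11.77 on HSP990. A clear gap separated the groups, and Cct7 rose 1.59-fold (0.67 ± 0.07, adjusted p = 6.18e-08, limma). Cct6a ran from 10.84 through 11.07 to 11.36 on vehicle and from 11.45 through 11.70 to 11.78 on HSP990, also without overlap. It rose by 0.58 ± 0.07 on the log2 scale (adjusted p = 7.64e-07, limma).

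Cct8 and Cct3 did not pass. Cct8 ran from 9.08 through 9.36 to 9.64 on vehicle and from 9.48 through 9.70 to 9.89 on HSP990, a difference of 0.33 ± 0.11 (adjusted p = 0.0599, limma). All 10 treated arrays lay above the vehicle mean of Cct8, while 4 of them lay within the vehicle range. Cct8 passed without wild-type vehicle replicate 4 or 7, wild-type HSP990 replicate 1, R6/2 HSP990 replicate 4 or R6/2 vehicle replicate 1 (adjusted p = 0.0288 to 0.0498, limma). It also passed with dim probe sets removed (0.0446), in a fit of the wild-type arrays alone (0.0259) and with array weights (0.00983). Cct3 ran from 10.83 through 11.12 to 11.18 on vehicle and from 11.09 through 11.25 to 11.51 on HSP990, a difference of 0.21 ± 0.08 (adjusted p = 0.128, limma). When the 3' bias was added to the model as a covariate, 7 of the 8 subunits rose, Cct3 and Cct4 among them (adjusted p = 0.0111 and 0.00968, limma). With the mean of each gene's probe sets Cct3 and Cct4 also passed (0.000309 and 0.000253). None of 8 medium spiny neuron markers, 6 astrocyte, 6 microglial or 5 myelin genes passed in this comparison by limma. An unadjusted p under 0.05 was found for 0, 0, 2 and 0 of them, and for 3363 of all 18193 genes. Of 5 endothelial genes 1 rose, Flt1 (0.39 ± 0.07, adjusted p = 0.000911, limma), where 2.24% of all genes did, and 2 had an unadjusted p under 0.05.

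The second comparison asks whether the same subunits moved in R6/2 mice. Of the 8 subunits, 6 rose with HSP990: Tcp1, Cct2, Cct3, Cct5, Cct6a and Cct7, by 1.15-fold to 1.31-fold (2.18% of all genes rose). The median log2 change over the 8 genes was 0.29, against 0.02 over all genes. For 0 of the 8 subunits were the groups free of overlap, where 0.5% of all genes rose with such a separation. Cct8 was the only subunit with a mean below that of vehicle. Tcp1, Cct2, Cct5, Cct6a and Cct7 rose in both genotypes, as 0.726% of all genes did.

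**Figure D2:**
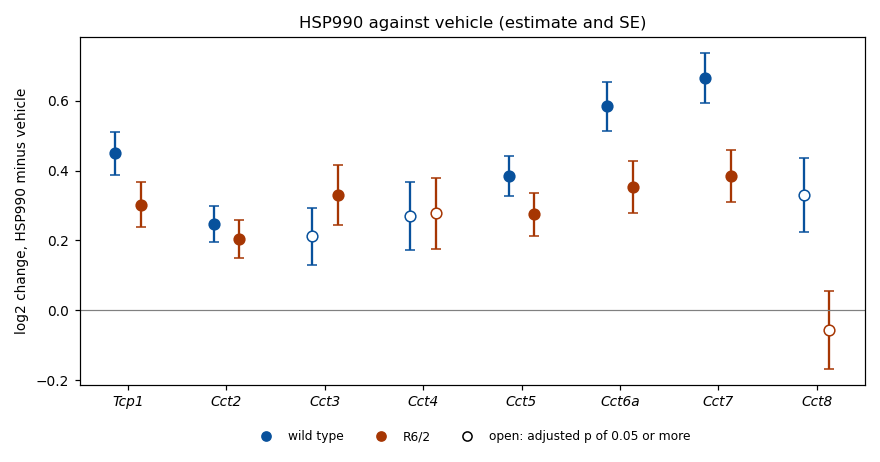
Log2 change with HSP990 (HSP990 minus vehicle, with SE) of each CCT subunit gene in wild-type mice and in R6/2 mice; filled points passed at an adjusted p under 0.05. Cct7 has the highest point in each genotype (0.67 and 0.39), and Cct8 lies at 0.33 in wild type and at -0.06 in R6/2, neither past the test.

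In R6/2 mice Tcp1 ran from 10.72 through 10.93 to 11.04 on vehicle and from 10.93 through 11.27 to 11.38 on HSP990. The lowest treated array lay near the vehicle median, and the log2 change was 0.30 ± 0.06 (adjusted p = 0.00529, limma). Cct5 ran from 10.67 through 10.86 to 10.90 and from 10.87 through 11.14 to 11.25, with 1 treated array inside the vehicle range and a change of 0.27 ± 0.06 (adjusted p = 0.00761, limma). Cct2 ran from 10.90 through 11.02 to 11.11 and from 11.08 through 11.22 to 11.34, a change of 0.20 ± 0.05 (adjusted p = 0.0303, limma). Cct2 is the smallest of the 6 rises. Cct4 ran from 11.04 through 11.25 to 11.67 and from 11.35 through 11.43 to 11.85, and did not pass (0.28 ± 0.10, adjusted p = 0.145, limma). For Cct4, 2 vehicle arrays lay inside the treated range, and without R6/2 vehicle replicate 1 it passed (0.34, adjusted p = 0.0355, limma).

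Cct7 ran from 10.85 through 11.01 to 11.30 on vehicle and from 11.20 through 11.43 to 11.66 on HSP990. It rose 1.31-fold (0.39 ± 0.07, adjusted p = 0.0019, limma) with a single vehicle array reaching into the treated range. Cct6a ran from 11.27 through 11.37 to 11.48 and from 11.43 through 11.79 to 11.91, a rise of 1.28-fold (0.35 ± 0.07, adjusted p = 0.00493, limma). Cct3 ran from 10.85 through 11.29 to 11.57 and from 11.28 through 11.61 to 11.83, a rise of 1.26-fold (0.33 ± 0.09, adjusted p = 0.0261, limma). In both groups of Cct3 several arrays overlapped, 3 of the treated and 4 of the vehicle arrays. Cct8 ran from 9.55 through 10.07 to 10.12 on vehicle and from 9.32 through 9.97 to 10.24 on HSP990. All vehicle arrays of Cct8 lay inside the treated range, with a log2 difference of -0.06 ± 0.11 (95% interval -0.28 to 0.17).

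The R6/2 calls were less stable than those of wild type. Fitted with the R6/2 arrays alone, 2 subunits passed, Cct6a and Cct7, and 4 passed in the model with the 3' covariate or without the 2 arrays of strong 3' bias, and 4 with the mean of each gene's probe sets. Of the 8 medium spiny neuron markers 2 fell in this comparison, the receptor genes Drd1 and Gpr6 (-0.80 ± 0.16 and -1.01 ± 0.22), and none rose. Of all 18193 genes 167 fell. Over the 8 markers the median change was -0.01, the highest 0.28, and 4 were above 0. The part of these markers in the subunit values was not tested. The call of Cct2 was lost without R6/2 HSP990 replicate 1, 3, 5 or 8 or R6/2 vehicle replicate 4, 5 or 7 (adjusted p = 0.0538 to 0.0834, limma), and that of Cct3 without R6/2 HSP990 replicate 5 or 8 or R6/2 vehicle replicate 7 (0.0523 to 0.09).

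The interaction asks whether a subunit responded differently in the genotypes. Of the 8 subunits 0 passed by limma (0.247% of all genes passed in either direction). An unadjusted p under 0.05 was found for 3, Cct6a, Cct7 and Cct8, and for 2345 of all 18193 genes. The log2 change was smaller in R6/2 for 6 of the 8, while for 62.1% of all genes it was larger. The median difference was -0.13 against 0.05 over all genes. For Cct8 the R6/2 minus wild-type difference of changes was -0.39 (95% interval -0.70 to -0.07, adjusted p = 0.27, limma), for Cct7 -0.28 (-0.49 to -0.07, adjusted p = 0.234, limma) and for Cct6a -0.23 (-0.44 to -0.02, adjusted p = 0.332, limma). The difference for Cct8 was -0.22 with the 3' covariate, and -0.15 with the mean of its probe sets, of which 1 is dim. The intervals given here are not corrected for the number of genes. For the representative probe set of Cct2 the interval was -0.20 to 0.11, so a difference as large as the wild-type change itself (0.25) lay outside it. This did not hold for its other probe sets. The interval was -0.44 to 0.09 for 1416037_a_at (wild-type change 0.33) and -0.24 to 0.15 for 1433534_a_at (0.18). By comparison Hspd1 and Hspe1, the subunits of the mitochondrial chaperonin, rose by 1.16 ± 0.08 and 1.30 ± 0.08 in wild type and by 0.48 ± 0.09 and 0.62 ± 0.08 in R6/2, and both passed the interaction test (adjusted p = 0.00556 and 0.00289, limma).

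Most subunits are measured by more than 1 probe set, and these were tested one by one over all 45037 probe sets. In wild type 14 of the 25 rose and none fell (2.43% of all probe sets rose), and 24 of 25 had a positive change. In R6/2 8 of the 25 rose and none fell (1.68% of all), and 21 were positive. The interaction was called for 0 of the 25 by limma (0.271% of all). Probe sets whose names end in _x_at or _s_at can bind more than 1 transcript, and the representatives of Cct2 and Cct4 are of the first kind.

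**Figure D3:**
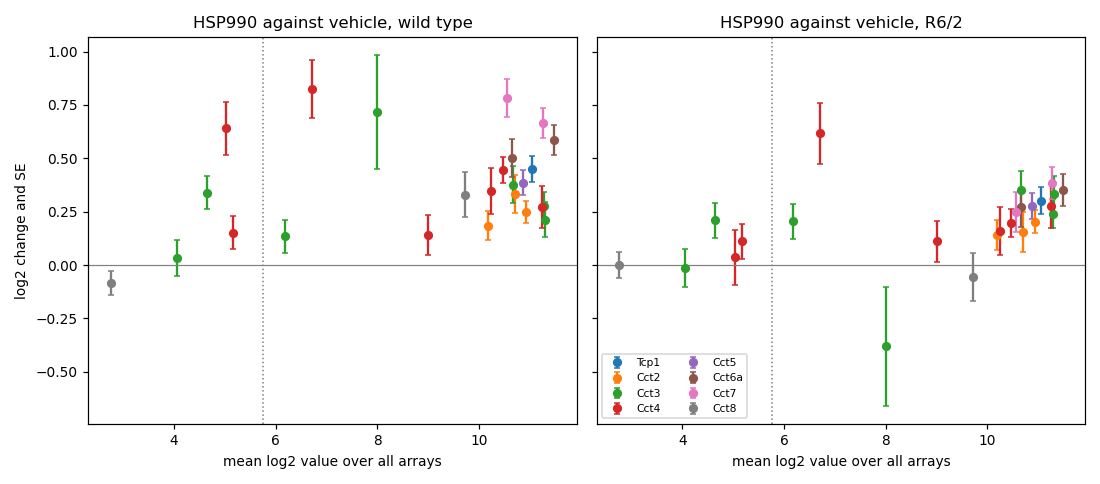
Log2 change with HSP990 and its SE for each of the 25 CCT probe sets against the probe set's mean log2 value over all 32 arrays, in wild-type and in R6/2 mice; colours mark the gene and the dotted line the median of all probe sets (5.76). In wild type the probe sets of Cct3 extend from 0.03 to 0.72 and those of Cct4 from 0.14 to 0.83, and both probe sets of Cct7 (0.67 and 0.78) lie above both of Cct6a (0.58 and 0.50).

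For Cct4, probe set 1415867_at separated the wild-type groups fully, with 9.92, 10.02 and 10.26 as lowest, median and highest on vehicle and 10.40, 10.52 and 10.65 on HSP990. It rose by 0.44 ± 0.06 (adjusted p = 1.5e-05, limma), where the brighter representative had not passed. Probe set 1430034_at of Cct4 rose most, by 0.83 ± 0.14 in wild type and 0.62 ± 0.14 in R6/2 (adjusted p = 0.000193 and 0.0122, limma). The 7 probe sets of Cct4 ranged from 0.14 to 0.83 in wild type, and 3 of them rose.

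For Cct3, 3 of 7 probe sets rose in wild type, among them 1416024_x_at (0.28 ± 0.07) and 1459987_s_at (0.38 ± 0.09). Probe set 1449645_s_at of Cct3 went in opposite directions, with changes of 0.72 ± 0.27 in wild type and -0.38 ± 0.28 in R6/2, neither past the test. Its lowest value, 5.69, came from R6/2 HSP990 replicate 5, the array with the largest Gapdh 3' minus 5' difference (5.01). Without the 2 arrays of strong 3' bias the R6/2 change of 1449645_s_at was -0.09 ± 0.19, and with the 3' covariate 0.14 ± 0.10.

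Both probe sets of Cct7 rose in wild type. The second, 1415817_s_at, ran from 9.96 through 10.03 to 10.38 on vehicle and from 10.76 through 10.93 to 11.12 on HSP990, a rise of 0.78 ± 0.09. In R6/2 its change was 0.25 ± 0.09 and did not pass, though it did without the 2 arrays of strong 3' bias (0.32 ± 0.08, adjusted p = 0.025, limma), and the interaction had an adjusted p of 0.0591 (-0.53 ± 0.13, limma). This interaction was -0.43 without those 2 arrays (adjusted p = 0.128, limma) and -0.35 with the 3' covariate (0.253). Both probe sets of Cct6a rose in wild type (0.58 and 0.50). Of the 3 probe sets of Cct2, 2 rose there, the exception being 1433534_a_at (0.18 ± 0.07). In R6/2 only the representative of Cct2 rose, and 1416037_a_at and 1433534_a_at did not pass (0.15 ± 0.09 and 0.14 ± 0.07). The second probe set of Cct8, 1436973_at, was dim in every group, with group medians of 2.71 to 2.77, and gives no separate reading of the gene.

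The third comparison sets R6/2 against wild type on vehicle. Its wild-type arrays are also the vehicle group of the first comparison, so its results are not independent of those. All 8 subunits had a higher mean in R6/2, and 5 were higher past the test: Cct2, Cct4, Cct5, Cct6a and Cct8 (11.9% of all genes were higher). The median log2 difference was 0.29, against -0.01 over all genes. The difference of Cct8 was the largest of the 8, with 9.08 to 9.64 in wild type and 9.55 to 10.12 in R6/2 (0.59 ± 0.12, SE, adjusted p = 0.000296, limma). For Cct8, 1 R6/2 array lay inside the wild-type range, and the R6/2 median (10.07) was above the highest wild-type array. With the mean of its probe sets, the dim one included, its difference was 0.28 and still passed (adjusted p = 0.000815, limma).

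Cct2 was higher in R6/2 without any overlap of the groups, with 10.56 to 10.79 in wild type and 10.90 to 11.11 in R6/2. The log2 difference of Cct2 was 0.36 ± 0.06 (adjusted p = 1.36e-05, limma), and 1.53% of all genes were higher without overlap. Cct6a, Cct5 and Cct4 were higher by 0.32 ± 0.08, 0.27 ± 0.06 and 0.32 ± 0.11. Tcp1, Cct3 and Cct7 had differences of 0.17 ± 0.07, 0.20 ± 0.09 and 0.15 ± 0.08 that did not pass. The call of Cct4 was lost without R6/2 vehicle replicate 1 or wild-type vehicle replicate 4 or 6 (adjusted p = 0.0592 to 0.0704, limma), and also with array weights or in a fit of the vehicle arrays alone (0.0506 to 0.0551). Tcp1 passed without R6/2 vehicle replicate 7, wild-type vehicle replicate 6 or R6/2 HSP990 replicate 4, and Cct3 without R6/2 vehicle replicate 7. Tcp1 passed with array weights (adjusted p = 0.00931, limma), and Cct3 with array weights (0.0441), the 3' covariate (0.0114) and the mean of its probe sets (0.00485).

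The fourth comparison sets the genotypes against each other on HSP990. Of the 8 subunits Cct2, Cct3, Cct4 and Cct5 were higher in R6/2, 4 in all, where 22.6% of all genes were higher. Cct2, Cct4 and Cct5, 3 of the 8, were higher in both genotype comparisons, as 9.72% of all genes were. The group means compared share no arrays, but both tests use 1 spread per gene estimated from all 32 arrays. Cct2 again separated the groups, with 10.68 to 10.99 in wild type and 11.08 to 11.34 in R6/2 (0.32 ± 0.05, adjusted p = 5.88e-06, limma), as 6.04% of all genes did in this direction. Cct3 and Cct4 were higher by 0.32 ± 0.08 and 0.33 ± 0.09, and Cct5 by 0.16 ± 0.06. Tcp1 and Cct6a differed by 0.02 ± 0.06 and 0.08 ± 0.07 (intervals -0.10 to 0.14 and -0.05 to 0.22), and neither passed. On vehicle their differences were 0.17 and 0.32, with intervals (0.03 to 0.30 and 0.16 to 0.47) that overlap those on HSP990. Neither gene passed the interaction test (adjusted p = 0.503 and 0.332, limma), so a change of their genotype difference with treatment was not shown. Cct7 was the only subunit with a lower mean in R6/2 (-0.13 ± 0.07, adjusted p = 0.14, limma), and its second probe set was lower past the test (-0.27 ± 0.09, adjusted p = 0.0154, limma). That call was lost with the 3' covariate (-0.13, adjusted p = 0.188, limma) and on leaving out both arrays of strong 3' bias (-0.20, adjusted p = 0.0508). The call of Cct5 was lost without R6/2 HSP990 replicate 1, 3, 5 or 7 or wild-type HSP990 replicate 1 (adjusted p = 0.0502 to 0.0614, limma). It was also lost with the 3' covariate (0.0606), without the 2 arrays of strong 3' bias (0.0633) and with the replicate block (0.106), so that its place among the genes higher in both comparisons depends on these settings. Cct8 passed without R6/2 HSP990 replicate 4 (adjusted p = 0.0176, limma), with array weights (0.0137) and with the 3' covariate, which raised its difference from 0.20 to 0.33 (0.00971). The call of Cct3 was lost with the mean of its probe sets (adjusted p = 0.436, limma) and that of Cct4 with the 3' covariate (0.0783), which also lowered the difference of Cct3 to 0.21 (adjusted p = 0.0208, limma).

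**Figure D4:**
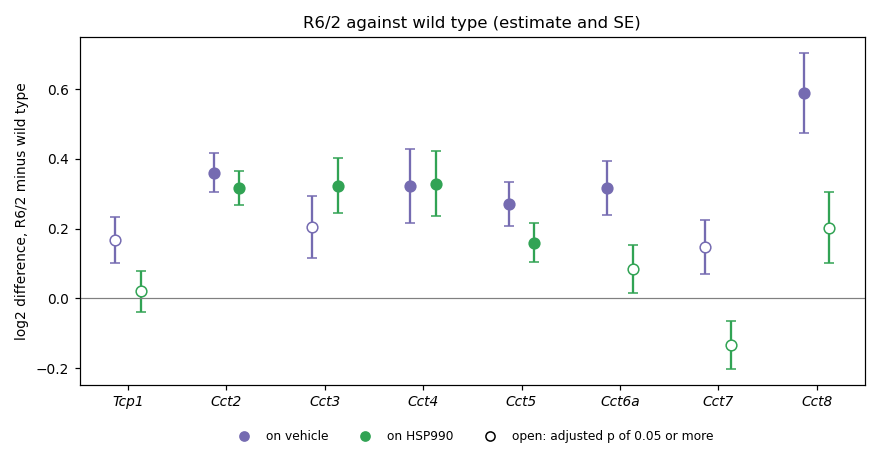
Log2 difference between R6/2 and wild-type mice (R6/2 minus wild type, with SE) of each CCT subunit gene on vehicle and on HSP990; filled points passed at an adjusted p under 0.05. Cct2 lies at nearly the same height on both treatments (0.36 and 0.32), and Cct8 falls from 0.59 on vehicle to 0.20 on HSP990.

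Over all 25 probe sets, 14 were higher in R6/2 on vehicle and none lower (8.06% of all were higher). On HSP990 12 were higher (15.8% of all) and 1, of Cct7, was lower (11.5% of all). That total of 13 became 7 without the 2 arrays of strong 3' bias, 7 with the 3' covariate and 8 with replicate number as a block, and all 7 were higher in the first and second of these fits. Markers of several cell types differed between the genotypes as well. Of the medium spiny neuron markers 7 of 8 were lower in R6/2 on vehicle and on HSP990. On vehicle 1 of 6 astrocyte, 1 of 6 microglial and 2 of 5 myelin genes were lower, and on HSP990 4, 3 and 4 of them were. Of all 18193 genes 1746 were lower on vehicle and 1998 on HSP990, so a single call in such a list is near the background. With vehicle, the mean over the medium spiny neuron markers ran from 11.67 to 12.12 in wild type and from 9.48 to 11.11 in R6/2. With HSP990 it ran from 11.67 to 12.16 and from 9.64 to 10.70. The part of these markers in the subunit differences was not tested, and in whole tissue fewer cells of a type and less RNA per cell cannot be told apart.

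The order of the 4 groups differed between subunits. Wild-type vehicle was the lowest group for all 8. For Cct2 both wild-type groups lay below both R6/2 groups, with means of 10.63 and 10.88 (vehicle and HSP990) and of 10.99 and 11.20, and each step was larger than the SD of either neighbour. For Tcp1 and Cct6a the HSP990 groups of both genotypes shared the top, 0.02 and 0.08 apart and within the SD. For Cct4 the wild-type HSP990 and R6/2 vehicle groups (11.21 and 11.26) were within the SD of each other, as were those of Cct3 (11.28 and 11.27). For Cct5 both vehicle groups (10.56 in wild type and 10.83 in R6/2) lay below both treated groups (10.95 and 11.11), again with each step above the SD. For Cct7 wild-type HSP990 was the highest (11.56), within the SD of R6/2 HSP990 (11.42), and for Cct8 R6/2 vehicle was (9.94), though within the SD of R6/2 HSP990 (9.89). Averaged over the 8 subunits, wild-type arrays ran from 10.60 to 10.75 with vehicle and from 10.92 to 11.17 with HSP990. The R6/2 arrays ran from 10.82 to 11.01 and from 11.07 to 11.29.

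Across all 32 arrays the subunits varied together, with a Pearson r between 0.21 and 0.85 (median 0.62) over the 28 pairs. With group means removed the median r was 0.16, from -0.52 to 0.71, and 19 of 28 pairs were above 0. Cct8 had the highest median r with the other members after group means were removed (0.39) and Cct4 the lowest (-0.11). Even so, the lowest of all pairs was Cct8 with Cct4 (-0.52), and Cct8 was below 0 with Cct3 (-0.43) and Cct7 (-0.09). Its highest r was with Cct6a (0.61). These values describe arrays that share RNA quality and normalization, and carry no test.

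The genes whose pattern over the 32 arrays was most like the mean of the standardised subunit values were Taok3, a kinase gene (r = 0.97), Rbm8a, which encodes a core protein of the exon junction complex (0.95), and Ahsa2 (0.95), a relative of the HSP90 activator Ahsa1 (0.92). They were followed by Gprasp2 (0.94), Cys1 (0.92), Naa16 (0.91), Cnpy4 (0.91), Gprasp1 (0.90) and Cybc1 (0.90). With group means removed r lay between 0.25 for Naa16 and 0.74 for Taok3. Since the subunit mean itself is higher with HSP990 and in R6/2, genes chosen for this likeness share those differences by selection, and their values are given as a description. Taok3 for example changed by 0.78 in wild type and 0.57 in R6/2, and was higher by 0.62 in R6/2 on vehicle.

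Genes of the chaperonin's partners gave 0 calls in either direction under HSP990. Of all 18193 genes 407 rose and 649 fell in wild type, and 396 rose and 167 fell in R6/2. Lists of this size would hold few calls at these shares. An unadjusted p under 0.05 was found for 3363 of all genes in wild type and for 2879 in R6/2. Of 6 prefoldin subunit genes none passed in wild type or in R6/2 by limma (0 and 2 with an unadjusted p under 0.05), with median log2 changes of 0.03 and -0.02. The nearest in wild type was Vbp1 (0.16 ± 0.08). On vehicle Vbp1, Pfdn4 and Pfdn5 were higher in R6/2 (0.55 ± 0.09, 0.38 ± 0.07 and 0.31 ± 0.07), where 11.9% of all genes were higher. On HSP990, where 22.6% were higher, Vbp1 and Pfdn4 passed again (0.45 ± 0.08 and 0.41 ± 0.06). Pfdn5 did not (0.14 ± 0.06). Of 9 phosducin-like regulators and tubulin cofactors none passed with HSP990 in either genotype by limma (3 in wild type and 1 in R6/2 with an unadjusted p under 0.05). The lowest p in wild type was that of Tbcd, a tubulin cofactor (-0.22 ± 0.07, adjusted p = 0.0513, limma). In R6/2 on vehicle Pdcl, Pdcl3, Tbca and Tbcb were higher (0.60 ± 0.11, 0.36 ± 0.12, 0.48 ± 0.08 and 0.42 ± 0.09) and Tbce was lower (-0.33 ± 0.07). Of all 18193 genes 2160 were higher and 1746 lower there. On HSP990 6 of these 9 genes were higher in R6/2 and 1 was lower, against 4110 and 1998 of all genes.

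Genes of chaperonin substrates gave 0 calls with HSP990 as well, to be read against the same background. Of 19 measured, among them actins, tubulins, G protein beta subunits and Cdc20, none passed in wild type or in R6/2 by limma. An unadjusted p under 0.05 was found for 7 in wild type, of which 1 was higher and 6 lower. In R6/2 it was found for 3, of which 2 were higher and 1 lower. Over all 18193 genes the counts were 1140 higher and 2223 lower in wild type, and 1902 and 977 in R6/2. The lowest p in wild type was that of Tubb3 (-0.25 ± 0.09). On vehicle Tubb2a was higher in R6/2 (0.56 ± 0.15), and Gnb5, Tuba4a, Plk1 and Tubb3 were lower (-0.73 ± 0.15, -0.38 ± 0.08, -0.37 ± 0.08 and -0.27 ± 0.10). Of all 18193 genes 2160 were higher and 1746 lower there. On HSP990 2 of the 19 substrate genes were higher in R6/2 and 4 lower, against 4110 and 1998 of all genes. Mouse Htt, the orthologue of the human gene from which the transgene was taken, had differences of 0.09 ± 0.13 and 0.27 ± 0.14 with HSP990 that did not pass. Among 4 chaperonin-like genes Bbs12, a ciliary assembly factor, fell in R6/2 (-0.47 ± 0.12) and no other passed with HSP990. Cct6b, the testis paralogue of Cct6a, changed by 0.21 ± 0.07 in wild type (adjusted p = 0.105, limma). All 9 measured heat shock genes rose in wild type, from Hspa8 (0.35 ± 0.06) to Hspa1b (5.46 ± 0.29), with a median log2 change of 1.225 against 0.36 for the subunits. In R6/2 8 of the 9 rose. The interaction passed for 1 of them, Hspa1a (-1.61 ± 0.28, adjusted p = 0.00543, limma), where 0.247% of all genes passed.

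Several subunit genes start close to another gene on the opposite strand. Such a neighbour within 1000 bases of the start was found for 6 of the 7 members with a promoter window. This set was looked up after the data had been seen, and no share over all genes is given for it. Psph, a serine synthesis gene that starts 103 bases from Cct6a, rose with it under HSP990 (0.53 ± 0.10 in wild type and 0.48 ± 0.10 in R6/2). Pradc1, 203 bases from Cct7, also rose (0.50 ± 0.09 and 0.58 ± 0.09). Both neighbours thus rose in both genotypes, as 0.726% of all genes did. On vehicle Pradc1 was 0.368 times its wild-type level in R6/2 (-1.44 ± 0.10, adjusted p = 1e-11, limma), where Cct7 differed by 0.15 ± 0.08. The others, Mrpl18 beside Tcp1, Tsacc beside Cct3, Atpsckmt beside Cct5 and B130034C11Rik beside Cct8, had changes with HSP990 between -0.14 and 0.17 that did not pass. Between the genotypes on HSP990, Pradc1, Tsacc and Atpsckmt were lower in R6/2 (-1.37 ± 0.09, -0.31 ± 0.10 and -0.29 ± 0.08), where 1998 of all 18193 genes were lower.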

How the data were processed

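Striatal RNA on 32 arrays had been prepared with a 3' labelling kit for 1-colour Affymetrix arrays, per the labels' protocols. The authors deposited log2 values (2.15 to 14.7) whose array medians nearly coincide. Their summary and normalization method is not stated in the labels or headers. Symbols came from the platform's probe table, updated through a mouse gene table, and 34945 probe sets had 1 symbol. Each of 18193 genes was represented by its brightest probe set. Group means (4) were modelled over all arrays with limma 3.58.1 in R 4.3.3, without a filter, and the script was tested on simulated data. P-values carry the Benjamini-Hochberg adjustment across all genes, or across all 45037 probe sets, with calls under 0.05. The number of arrays limits precision. Members, lists and tests were chosen with earlier results of these data known. All members are named. For related lists the plan was to name called genes (up to 4 a comparison) or else the lowest p. Lists without calls are given only by their lowest p in wild type. Heat shock genes are given by the lowest and highest wild-type change and by the interaction call. Others, such as Htt, Cct6b and the genes named between genotypes, were chosen after their values were seen. Endothelial markers gave Flt1 higher with HSP990 in both genotypes and Cldn5 lower in R6/2, and no cortex or red blood cell marker was called for treatment. Alternatives covered normalization, probe set choice, variance, RNA quality, pairing and each array left out.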

Additional observations from a re-analysis of the deposited data

Results flagged for a closer look

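In 6 of 100 combinations of probe set and group, the highest or lowest array stood apart from the others by more than Dixon's 95% critical value, and chance flags about 1 in 20. The only case among the representative probe sets was Cct7 in wild-type HSP990 replicate 2, at 11.77 with the nearest other array at 11.60. That array was also high for Cct4 probe set 1456082_x_at (9.26, nearest 9.02). Cct2 probe set 1416037_a_at was low in R6/2 vehicle replicate 1 (10.52, nearest 10.76), and Cct3 probe set 1416024_x_at was low in R6/2 HSP990 replicate 6 (11.29, nearest 11.48). Cct3 probe set 1451915_at was high in R6/2 HSP990 replicate 5 (4.43, nearest 4.16), and Cct4 probe set 1456572_x_at was low in wild-type vehicle replicate 4 (4.59, nearest 4.92). Both of these probe sets are dim.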

How the results depend on the processing

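Counts of subunits called ran from 5 to 7 for HSP990 in wild type and from 4 to 6 for R6/2 against wild type on vehicle over the alternatives other than single arrays left out, and from 3 to 5 for the genotypes on HSP990. No alternative gave an interaction call. For HSP990 in R6/2 the count of 6 became 2 in a fit of those groups alone. With single arrays left out the 4 counts ran from 5 to 6 (wild type), 4 to 7 (R6/2), 4 to 7 (genotypes on vehicle) and 3 to 5 (genotypes on HSP990). Quantile normalization, median centring and a trended, robust variance changed no call of a subunit. With the mean of all probe sets Cct7 was lower in R6/2 on HSP990 (-0.20, adjusted p = 0.0183, limma). Replicate numbers were not shown to pair the arrays: the median correlation of deviations was 0.07 for equal and -0.02 for different numbers. With the replicate block 5, 5, 5, 3 and 0 subunits were called in the 5 comparisons, and the 13 probe sets called between the genotypes on HSP990 became 8. That count was 7 without the 2 arrays of strong 3' bias and 7 with the 3' covariate, alternatives for probe sets chosen after seeing the data. The cause of these shifts was not tested. Changes near 0 that did not pass turned sign. The R6/2 change of Cct8 was 0.0528 with the 3' covariate, and -0.1215 to 0.0244 with single arrays left out. The difference of Tcp1 on HSP990 was -0.0016 without the 2 arrays, and -0.0016 to 0.0624 with single arrays left out. The interaction of Cct3 was -0.16 with the mean of probe sets and -0.0397 with the 3' covariate. That of Cct4 was -0.19, -0.17, -0.0312 and -0.0155 with the mean of probe sets, the 3' covariate, the 2 arrays removed and the replicate block, and -0.042 to 0.0734 with single arrays left out. The fit of the compared groups alone was not run for the interaction.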
